A study of Mus musculus with 12 samples.

Results

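Dazl (deleted in azoospermia-like) is 1 of 27677 genes named on a mouse expression array that was hybridised with RNA of embryonic stem (ES) cells. It was found by the gene name that the array files give to each spot. Of 41174 probes 2 carry that name, A_52_P271166 and A_51_P246060, each with 1 spot per array and both annotated to the transcript NM_010021. They were kept apart throughout. The array files give no probe sequence, so neither which part of the transcript each probe reads nor how well it binds is known here, and levels were not compared between the probes.

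DAZL is an RNA-binding protein of germ cells that binds U-rich stretches in the 3′ untranslated regions of messenger RNAs through an RNA recognition motif and acts mainly on their translation. Mice need it for germ cell development in both sexes. Its promoter is rich in CpG, is methylated in somatic tissues and loses that methylation in primordial germ cells, and cultured ES cells are known to transcribe a number of such germline genes at low level.

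RNA of 12 samples was measured in one colour (Cy3), with 1 array for each of 2 cell lines, 2 media arms and 3 days. The lines are called Dazl-GFP and Stella-GFP after their fluorescent reporter constructs, Stella being another name of the germ cell gene Dppa3. Every medium contained leukemia inhibitory factor (LIF), and γ-irradiated mouse embryonic fibroblasts (MEFs) served as feeder cells. The 6 groups, each with 1 array of either line, were serum-free B27N2 medium at days 0, 3 and 10, which the labels call the 2i condition, and DMEM with 15% fetal bovine serum (FBS) at days 0, 3 and 10. The 2i experiments used PD0325901, an inhibitor of MEK (1 µM), together with Kenpaullone, an inhibitor of GSK3β (5 µM). The labels leave unsaid if inhibitors were also given in FBS, and what was given before serum-free day 0. They also do not say whether the reporters are insertions into the genes or transgenes, how much Dazl sequence the Dazl-GFP construct carries, or whether each line is 1 clone. The line and its construct therefore cannot be told apart. The 2 lines are the only replicates of a group, so a p-value here reflects how far these samples scatter. Between the lines there is no replicate line, and a p-value there does not measure how lines vary.

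The deposited intensities are background-subtracted spot signals, and the 75th percentile of an array's signal lay between 454 and 947 units. Levels below are log2 signals minus that percentile, so that 0 is the brightness of a spot at the 75th percentile. Between 64% and 74.4% of the spots of an array were well above background, and precision is limited by how few arrays there are. The cell type label was checked against markers: Pou5f1, Nanog and Sox2 lay well above background on 12 of 12 arrays, as did the other 6 ES cell markers tested. The arrays lay on 3 slides of 4, so that slides, lines and arms overlap in part. The serum-free arm and the FBS arm of 1 line never shared a slide. Of the line pairs, FBS day 0 and serum-free day 10 lay on 1 slide each.

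In the RefSeq annotation of build GRCm38.p6 Dazl lies on the minus strand at chr17:50279393-50293620. The 250 bases before its start, at chr17:50293621-50293870, are shown because the methylation described above concerns the CpG sites in this stretch, which are in capitals:
Dazl promoter, minus strand: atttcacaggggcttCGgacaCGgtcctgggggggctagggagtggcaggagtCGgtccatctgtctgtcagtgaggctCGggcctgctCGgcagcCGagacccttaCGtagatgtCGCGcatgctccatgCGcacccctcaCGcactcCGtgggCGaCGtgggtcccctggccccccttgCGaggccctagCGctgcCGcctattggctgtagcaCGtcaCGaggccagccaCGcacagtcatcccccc
The stretch holds 20 CpG and has a GC content of 67.2%. Windows of the same length before 32851 annotated starts had a median of 6 CpG, and 17.9% of them had at least 20. Searched on both strands, the E2F motif GCGGGAA and the E-box CACGTG had 0 matches here, while 3.8% and 6.0% of the windows hold them. No methylation was measured on these samples.

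Dazl RNA was detected on every array. Both probes were well above background on 12 of 12 arrays, and none of their spots was saturated or irregular. On A_52_P271166 the Dazl-GFP line had signals of 442, 1410 and 1120 units at days 0, 3 and 10 in serum-free medium and of 547, 636 and 8010 in FBS. The Stella-GFP line had 96.1, 225 and 129 units in serum-free medium and 215, 74.4 and 391 in FBS. As deposited, every Dazl-GFP signal on this probe lay above every Stella-GFP signal, and the Dazl-GFP array of FBS day 10 lay far above all others.

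Relative to the 75th percentile, the log2 level on A_52_P271166 in the Dazl-GFP line was -1.01, 0.69 and 0.90 at days 0, 3 and 10 in serum-free medium and -0.79, 0.18 and 3.19 in FBS. In the Stella-GFP line it was -2.68, -1.63 and -2.29 in serum-free medium and -1.94, -2.61 and -0.88 in FBS. After this scaling the lines overlapped at 1 array, since Dazl-GFP cells at serum-free day 0 lay just below Stella-GFP cells at FBS day 10.

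On A_51_P246060 the signals were 50.4, 157 and 74.6 units in serum-free and 71.8, 44.5 and 493 in FBS Dazl-GFP cells at days 0, 3 and 10. The Stella-GFP cells had 22.6, 87.9 and 38.3 units in serum-free medium and 50.5, 28.5 and 82.4 in FBS. Here the lines overlapped, and again the Dazl-GFP array of FBS day 10 stood highest. The log2 levels were -4.14, -2.48 and -3.01 in serum-free and -3.72, -3.66 and -0.83 in FBS Dazl-GFP cells. They were -4.77, -2.99 and -4.04 in serum-free and -4.03, -3.99 and -3.12 in FBS Stella-GFP cells.

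The patterns of the probes over the arrays were alike but not the same. Their log2 levels correlated at r = 0.876 (Spearman's rho 0.776) over the 12 arrays, at 0.965 over the 6 Dazl-GFP arrays and at 0.837 over the 6 Stella-GFP arrays. Without the 2 arrays farthest from the median r was 0.695. These correlations describe 2 probes read on the same arrays and carry no test.

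**Figure D1:**
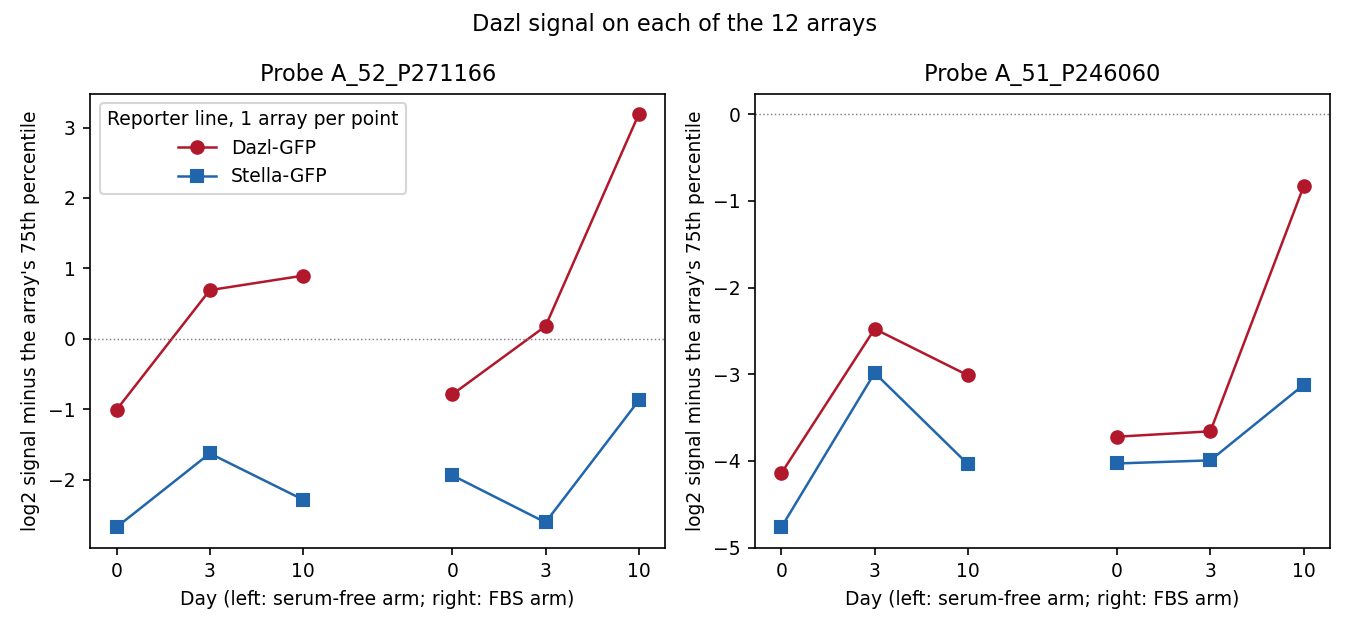
Dazl log2 signal minus the array's 75th percentile (y axis) by day (x axis), serum-free arm at the left and FBS arm at the right of each panel, 1 panel per probe and 1 point per array, with red circles for Dazl-GFP and blue squares for Stella-GFP. On A_52_P271166 each Dazl-GFP point lies above the Stella-GFP point of its arm and day, and the highest point in both panels, at 3.19 and -0.83, is Dazl-GFP cells at FBS day 10.

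The most regular difference in Dazl was between the lines. On A_52_P271166 Dazl was higher in Dazl-GFP than in Stella-GFP cells by 2.53 on the log2 scale (SE 0.358, limma adjusted p = 0.0155), a 5.77-fold difference with a 95% interval of 3.24 to 10.3. It was higher in 6 of 6 pairs of the same arm and day, by 1.15 to 4.07 (mean 2.53 ± 1.05, SD, n = 6 pairs). An exact two-sided sign-flip permutation test gave p = 0.03125, the smallest that 6 pairs allow. The pairs are the same 2 lines measured in 6 groups, so both p-values describe scatter over arms and days, not over lines. Of the 31458 probes, 2.5% passed an adjusted p of 0.05 in this comparison, and by size of change this Dazl probe ranked at place 44.

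A_51_P246060 showed the same direction with a smaller value. It was higher in Dazl-GFP cells by 0.85 (SE 0.262, 95% interval 0.24 to 1.46), also in 6 of 6 pairs (exact permutation p = 0.03125, 0.31 to 2.29), but it did not pass over all probes (adjusted p = 0.154).

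Taken pair by pair on A_52_P271166, the line difference was 1.67, 2.32 and 3.18 at days 0, 3 and 10 in serum-free medium and 1.15, 2.79 and 4.07 in FBS. In both arms it was smallest at day 0 and largest at day 10. The pairs that shared a slide gave 1.15 at FBS day 0 and 3.18 at serum-free day 10. On A_51_P246060 the pairs gave 0.62, 0.51 and 1.03 in serum-free medium and 0.31, 0.34 and 2.29 in FBS, and those on 1 slide gave 0.31 and 1.03.

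With the slide as a further term the line difference on A_52_P271166 was 2.17 (adjusted p = 0.282). It also missed the threshold without any 1 of the 4 arrays of day 3, at adjusted p = 0.0522 without the Dazl-GFP or the Stella-GFP array of the FBS arm and 0.057 without either serum-free array. Its direction and most of its size did not depend on 1 array, since leaving out each array in turn gave 2.22 to 2.80.

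Whether the line difference itself changed was tested in its own right. Day 10 minus day 0 of the line difference, a comparison added after these values were seen, was 2.22 on A_52_P271166 (SE 0.407, unadjusted p = 0.00198) and 1.19 on A_51_P246060 (SE 0.454), both with an adjusted p of 0.874. The share of all probes past the threshold was 0% there. The line difference in serum-free medium minus that in FBS was -0.28 (SE 0.759, 95% interval -2.10 to 1.54) on A_52_P271166 and -0.26 (SE 0.550) on A_51_P246060, at adjusted p = 0.893 and 0.861, again with 0% of all probes past the threshold. At an unadjusted p of 0.05 limma called 1526 of 31458 probes in the comparison of days, both Dazl probes among them. In that of arms it called 3476, with neither Dazl probe. The 1526 is near the count that this threshold passes when no probe changes.

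**Figure D2:**
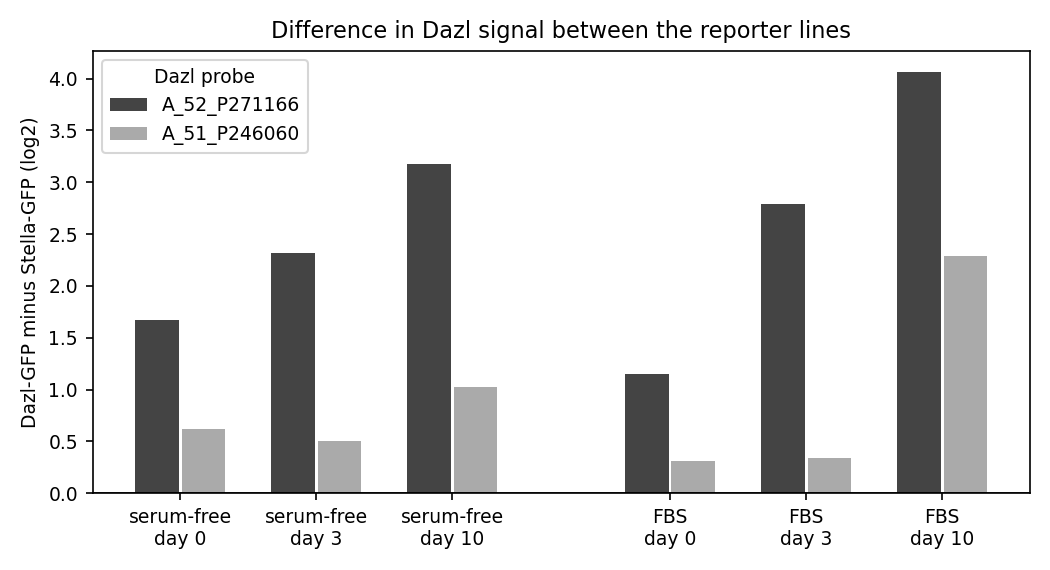
Dazl-GFP minus Stella-GFP log2 difference in Dazl signal (y axis, from 0) for each arm and day (x axis), dark bars for A_52_P271166 and light bars for A_51_P246060, each bar from 1 pair of arrays. All 12 bars are above 0, and on A_52_P271166 they grow from day 0 to day 10 in either arm, to 3.18 in serum-free medium and 4.07 in FBS.

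In the FBS arm Dazl was higher at day 10 than at day 0 on both probes. The change was 2.52 on A_52_P271166 (SE 0.620, adjusted p = 0.0386, 5.75-fold, 95% interval 2.11 to 15.6) and 1.90 on A_51_P246060 (SE 0.453, adjusted p = 0.0352, 3.73-fold, 95% interval 1.79 to 7.74). Of all probes 12.5% passed in this comparison. Within the lines, day 10 over day 0 was 15.8-fold in Dazl-GFP cells, whose arrays shared a slide, and 2.09-fold in Stella-GFP cells on A_52_P271166. On A_51_P246060 it was 7.41-fold in Dazl-GFP cells and 1.87-fold in Stella-GFP cells.

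At day 3 no change in FBS passed the threshold. Day 3 minus day 0 in FBS was 0.15 (SE 0.620, adjusted p = 0.899) and 0.05 (SE 0.453, adjusted p = 0.957) on A_52_P271166 and A_51_P246060, where 11.7% of all probes passed. On A_52_P271166 the lines moved in opposite directions, by 0.97 in Dazl-GFP and -0.67 in Stella-GFP cells. Day 10 minus day 3 was 2.37 (SE 0.620, adjusted p = 0.0892) and 1.85 (SE 0.453, adjusted p = 0.0801), with 0.776% of all probes past the threshold and A_52_P271166 at place 78 by size of change. Inside 1 slide, day 10 minus day 3 was 3.01 in Dazl-GFP and 1.73 in Stella-GFP cells on A_52_P271166, and 2.83 and 0.87 on A_51_P246060.

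The FBS call at day 10 rests on few arrays. On either probe it was lost when most single arrays were left out, also ones outside this comparison. Without the Dazl-GFP array of FBS day 10 the change was 1.6 (adjusted p = 0.195) on A_52_P271166 and 1.03 (adjusted p = 0.106) on A_51_P246060. Without the Dazl-GFP array of FBS day 0 it was 1.69 (adjusted p = 0.154) and 1.57 (adjusted p = 0.137). The Stella-GFP arrays of these days lay on different slides, and with slide as a term both calls were lost (3.15, adjusted p = 0.0572, and 2.22, adjusted p = 0.0836), as they were with the 4 compared arrays alone (adjusted p = 0.174 and 0.164).

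In the serum-free arm the only change that passed was at day 3, on 1 probe. On A_51_P246060 Dazl was higher at day 3 than at day 0 by 1.72 (SE 0.453, adjusted p = 0.0442, 3.30-fold, 95% interval 1.59 to 6.86), while A_52_P271166 gave 1.37 (SE 0.620, adjusted p = 0.174, 95% interval -0.07 to 2.82). Of all probes 14.6% passed here. All 4 within-line values were above 0 and each came from 1 slide: 1.70 in Dazl-GFP and 1.05 in Stella-GFP cells on A_52_P271166, and 1.67 in Dazl-GFP and 1.78 in Stella-GFP cells on A_51_P246060. The call on A_51_P246060 was lost with normexp background correction (0.71, adjusted p = 0.148). It was also lost with slide as a further term (adjusted p = 0.0642) and without any 1 of the 4 arrays compared (adjusted p 0.128 to 0.228).

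By day 10 the serum-free arm showed no further change that passed. Day 10 minus day 0 was 1.15 (SE 0.620, adjusted p = 0.289) and 0.93 (SE 0.453, adjusted p = 0.246) on A_52_P271166 and A_51_P246060, with 4.30% of all probes called. Day 10 minus day 3 was -0.23 (SE 0.620, adjusted p = 0.831) and -0.79 (SE 0.453, adjusted p = 0.298), with 1.63% called. On A_52_P271166 the lines differed in sign in that step, at 0.21 in Dazl-GFP and -0.66 in Stella-GFP cells.

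Markers of other cells in the cultures changed as well. Of 18 feeder fibroblast markers tested, 10 were lower and 0 higher at serum-free day 3 than at day 0 (14.6% of all probes called). The median of the 18 was -1.39. Their summed level, in multiples of an array's 75th percentile, was 27.1 and 36.7 at day 3 in Dazl-GFP and Stella-GFP cells, against 67.8 and 73.6 at day 0. At FBS day 10 it was 66.9 and 101.5, against 74.9 and 86.9 at FBS day 0, with 1 marker of 18 higher (Col1a1) and 1 lower (Twist2). None of the 18 was absent, each being well above background on 12 arrays. Between the lines 1 of the 18, Twist2, was lower in Dazl-GFP cells (-0.79) and 0 were higher. Of 9 ES cell markers, 2 were lower in Dazl-GFP cells, Zfp42 (-0.88) and Tdgf1 (-0.76), and of 13 primitive endoderm markers 1 was higher, Lama1 (1.00), beside 2.5% of all probes called. Of the 9 ES cell markers, 3 were higher at FBS day 10 than at day 0 (Nanog, Zfp42 and Esrrb) and 3 lower (Tdgf1, Utf1 and Lin28a), beside 12.5% of all probes called. Arrays measure the RNA of the whole culture, so that fewer cells of a type and less RNA per cell cannot be told apart, and the part of these shifts in the Dazl values was not tested.

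Serum-free minus FBS at the same day asks how the media arms differed. No Dazl probe passed at any day. At day 0 the difference was -0.48 (SE 0.620, adjusted p = 0.672) on A_52_P271166 and -0.58 (SE 0.453, adjusted p = 0.473) on A_51_P246060, where 1.68% of all probes passed. At day 3 it was 0.75 (SE 0.620, adjusted p = 0.394) and 1.10 (SE 0.453, adjusted p = 0.113), with 24.0% passing. At day 10 it was -1.85 (SE 0.620, adjusted p = 0.13) and -1.55 (SE 0.453, adjusted p = 0.0968), with 4.84% passing.

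Both lines and both probes agreed in sign at each of these days. The serum-free cultures were lower at day 0, higher at day 3 and lower at day 10, where the 2 lines gave -2.29 (Dazl-GFP) and -1.41 (Stella-GFP) on A_52_P271166 and -2.18 and -0.91 on A_51_P246060. Over all days the arm difference was -0.53 (exact permutation p = 0.375) and -0.34 (exact permutation p = 0.594) on A_52_P271166 and A_51_P246060, higher in 2 of 6 pairs on each. In limma the adjusted p were 0.519 and 0.654, and 9.34% of all probes passed. No line had both arms on 1 slide. With slide as a further term the sign turned at day 0 (0.70 on A_52_P271166 and 0.017 on A_51_P246060) and over all days (1.07 and 1.10), and none of these passed.

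Markers of other cells differed between the arms at day 3. Of the markers tested, 16 of 18 of feeder fibroblasts and 7 of 11 of macrophages were lower in serum-free medium than in FBS, and 8 of 13 of primitive endoderm were higher, beside 24% of all probes called. The summed feeder level was 27.1 and 36.7 in serum-free medium against 99.4 and 160.2 in FBS (Dazl-GFP and Stella-GFP cells). For macrophages it was 1.48 and 1.28 against 5.82 and 9.92, and for primitive endoderm 26.7 and 12.2 against 4.26 and 4.69. The part of these cells in the arm difference of Dazl was not tested.

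How the arm difference changed from day 3 to day 10 was tested after these values had been seen. The arm difference at day 10 minus that at day 3 was -2.64 on A_51_P246060 (SE 0.641, adjusted p = 0.049) and -2.60 on A_52_P271166 (SE 0.877, adjusted p = 0.0886), where 8.15% of all probes passed. The call on A_51_P246060 was lost with slide as a further term (-2.69, adjusted p = 0.0908), and without the Dazl-GFP array of FBS day 10 (-1.78, adjusted p = 0.112). Beside it, 7 of 18 feeder markers, 5 of 11 macrophage markers and 0 of 13 primitive endoderm markers were called higher in the same comparison, and 6 primitive endoderm markers were called lower. Their part in the Dazl value was not tested.

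The day 3 response (day 3 minus day 0) in serum-free medium minus that in FBS was 1.22 (adjusted p = 0.416) and 1.67 (adjusted p = 0.161) on A_52_P271166 and A_51_P246060, with 1.43% of all probes called. The day 10 response gave -1.37 (adjusted p = 0.44) and -0.97 (adjusted p = 0.456), with 0.0223% called. Dazl passed in neither.

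Ordered by the mean over both lines, the groups ran alike on both probes: FBS day 10, serum-free day 3, serum-free day 10, FBS day 3, FBS day 0 and serum-free day 0. The means on A_52_P271166 were 1.16, -0.47, -0.70, -1.22, -1.37 and -1.84. Of neighbours in this order, FBS day 10 and serum-free day 3 alone differed by more than the 95% interval of a difference (1.63 against a half-width of 1.44). The order comes from these same values and the interval is not adjusted for it, so this is no test. The FBS day 10 arrays lay at 3.19 (Dazl-GFP) and -0.88 (Stella-GFP). On A_51_P246060 the means were -1.98, -2.73, -3.53, -3.83, -3.88 and -4.45, and no neighbours differed beyond the half-width of 1.06.

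**Figure D3:**
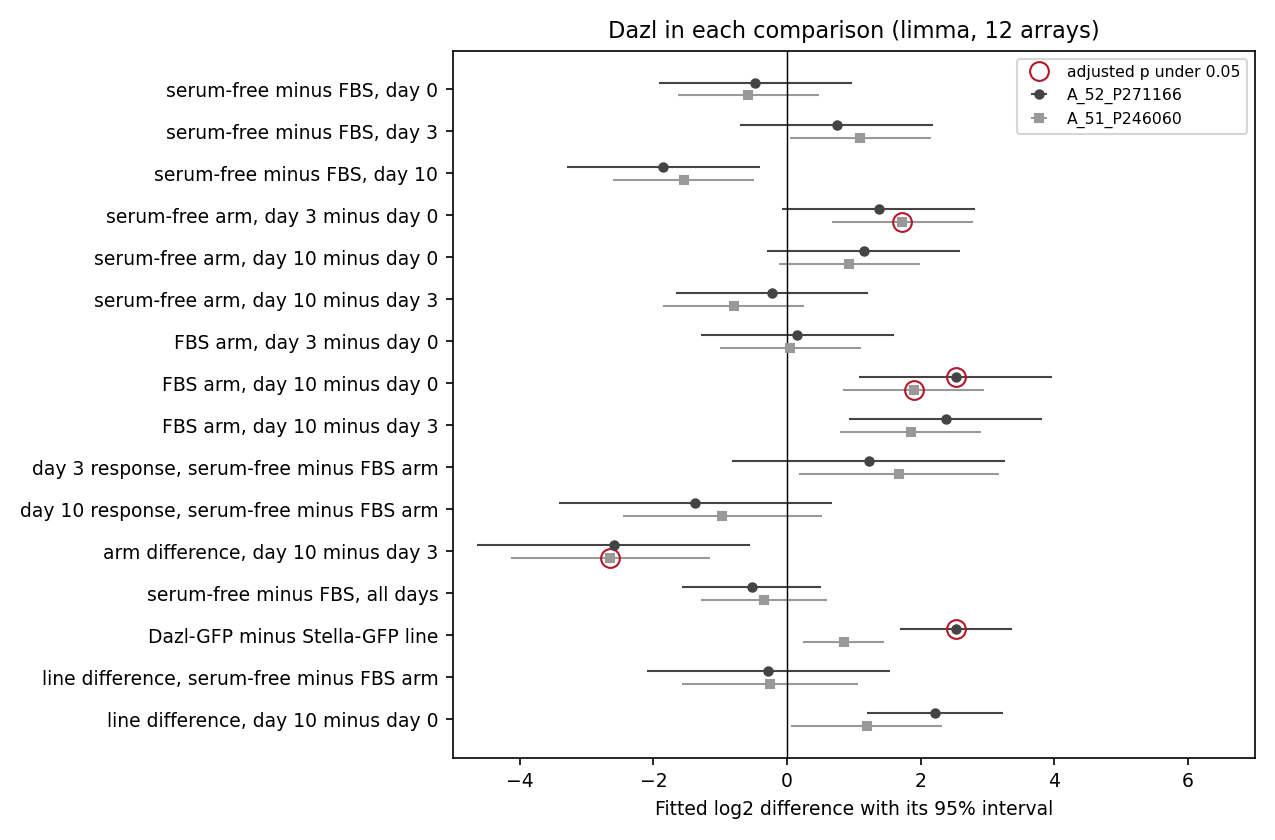
Fitted log2 differences (x axis) with 95% intervals for each comparison (rows), dark circles for A_52_P271166 and light squares for A_51_P246060, with red rings around those at an adjusted p under 0.05. A_52_P271166 is ringed in the line difference (2.53) and in FBS day 10 minus day 0 (2.52), and A_51_P246060 in FBS day 10 minus day 0 (1.90), serum-free day 3 minus day 0 (1.72) and the change of the arm difference (-2.64).

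Dppa3, the gene after which the other line is named, did not show the mirror image. Its Dazl-GFP minus Stella-GFP difference was -0.30 (SE 0.315, adjusted p = 0.66). Dppa3 rose in FBS at day 3, by 2.70 over day 0 (SE 0.545, adjusted p = 0.0229), when the Dazl probes gave 0.15 and 0.05. Its change at FBS day 10 was 0.68 (adjusted p = 0.453).

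The series title names TET proteins, the oxidases of 5-methylcytosine. Tet2 was higher in Dazl-GFP cells by 0.61 (SE 0.104, adjusted p = 0.029) and rose at FBS day 10 by 0.81 (adjusted p = 0.0291), while Tet1 gave 0.05 (adjusted p = 0.887) between the lines and -0.50 (adjusted p = 0.226) at FBS day 10. Tet3 gave -0.06 (adjusted p = 0.924) and -1.25 (adjusted p = 0.0941). At serum-free day 3 against day 0, Tet1, Tet2 and Tet3 gave -0.02, -0.06 and -0.66, none of which passed.

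Dazl's relatives among germline RNA-binding proteins, 21 tested without Dazl, were called higher in Dazl-GFP cells in 3 cases and lower in 2 (2.5% of all probes called). Their median was 0.15 against -0.01 over all probes. Higher was the piRNA pathway helicase gene Mov10l1 (0.63, adjusted p = 0.0242). Lower were Nanos3, a translational repressor needed by primordial germ cells (-1.63, adjusted p = 0.0053), and Tdrd1, a Tudor protein of the piRNA pathway (-0.65, adjusted p = 0.021). Boll, the other DAZ family gene on the array, was among the 16 that did not pass.

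In the serum-free arm 7 of these 21 genes were lower at day 3 than at day 0 and 0 were higher, where 14.6% of all probes were called in either direction. The vasa helicase gene Ddx4 fell by 1.67 (adjusted p = 0.00332), Piwil4 by 2.89 (adjusted p = 0.00682) and Tdrd1 by 1.46 (adjusted p = 0.00514), at the step where Dazl gave 1.37 and 1.72. At FBS day 10 against day 0, where 12.5% of all probes were called, 4 were lower (Piwil4, Tdrd1, Piwil2 and Ddx4, by -2.60 to -0.65) and 1 higher, Elavl2, an RNA-binding protein of neurons and oocytes (0.92, adjusted p = 0.0288).

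Germline genes whose promoters are methylated in somatic cells, the class to which Dazl belongs, gave 21 tested members besides Dazl. At serum-free day 3, 9 of the 21 were lower than at day 0 and 0 higher (14.6% of all probes called), with a median of -0.68 against -0.01 over all probes. The lowest were Mael (-1.96, adjusted p = 0.00979), a piRNA pathway factor, and Ddx4. At FBS day 10, 3 of the 21 were lower (Ddx4, Tdrd1 and Zcwpw1, -0.95) and 0 higher (12.5% of all probes called), with a median of -0.52 against -0.04 over all probes. Dazl stood above the list's median at both steps. On A_52_P271166, its probe of highest mean, it was called higher at FBS day 10 but not at serum-free day 3. At serum-free day 3 A_51_P246060 alone was called. The 21 other members, each read on 1 probe, had no higher call at either step. Between the lines, 3 were higher in Dazl-GFP cells and 1 lower (2.5% of all probes called), with Stag3, a meiotic cohesin, at 1.43 (adjusted p = 0.0233).

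**Figure D4:**
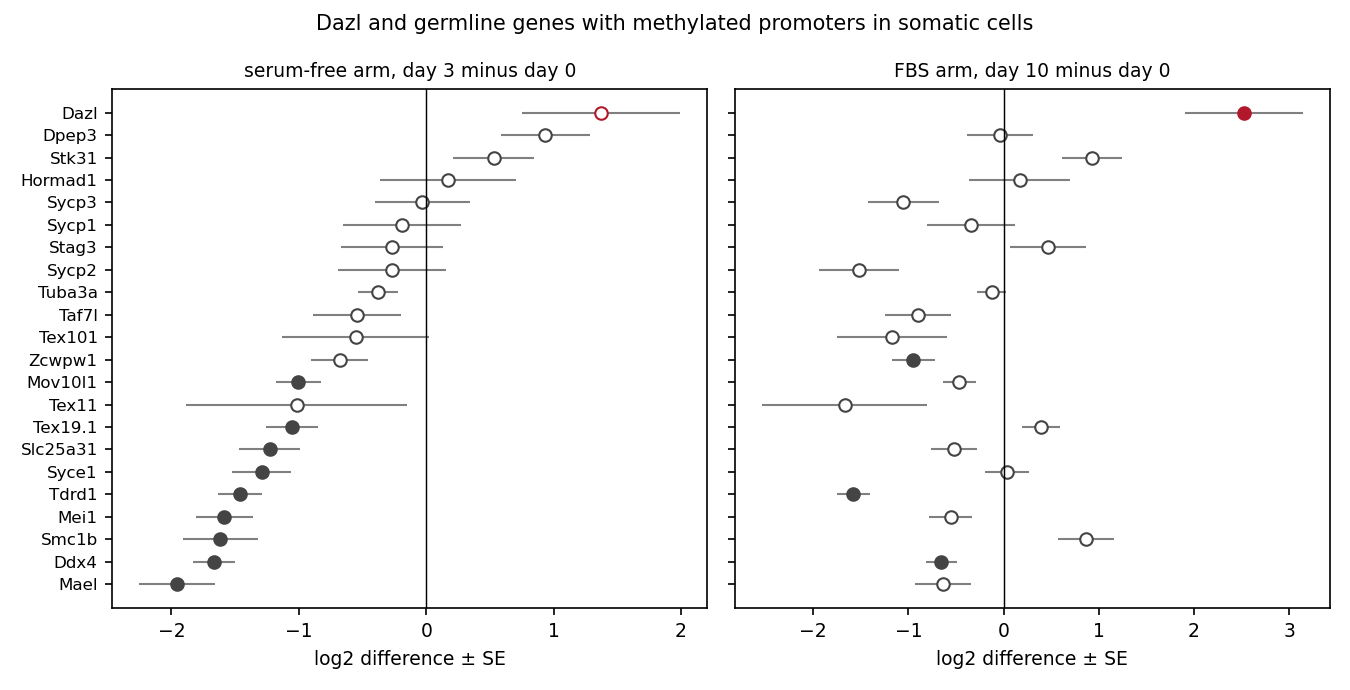
Log2 differences with SE (x axis) of Dazl (red, probe A_52_P271166) and 21 germline genes with promoters methylated in somatic cells (rows, in the order of the left panel), serum-free day 3 minus day 0 at the left and FBS day 10 minus day 0 at the right, filled where the adjusted p was under 0.05. Dazl has the highest value in either panel (1.37, not past the threshold, and 2.52), while 9 and 3 other genes are filled, all below 0.

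Of 14 mRNAs that have been reported as DAZL targets in mouse, 1 was higher in Dazl-GFP cells, Tex19.1 (0.59, adjusted p = 0.0485). The other 13 did not pass, the median of the 14 was -0.10, and 2.5% of all probes were called. Where 12.5% of all probes were called, at FBS day 10, 2 were higher than at day 0, Tex14, of the intercellular bridge (1.62, adjusted p = 0.0128), and the caspase gene Casp9 (0.94, adjusted p = 0.0249), and Ddx4 was lower. The targets Sox2, Sall4 and Suz12 did not pass in either of these comparisons. At serum-free day 3 against day 0, 0 of the 14 were called higher and 4 lower, with a median of -0.11. There 14.6% of all probes were called. DAZL is known to act on translation, which arrays do not read.

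Genes that repress or methylate germline promoters were set beside Dazl. Of 19 subunits and partners of the polycomb complex PRC1.6 and of histone H3K9 repressors, 0 passed between the lines in limma. In the same fit 4 had an unadjusted p under 0.05. Of all 31458 probes, 2.5% passed there and 5392 had an unadjusted p under 0.05. At FBS day 10, Wdr5 was higher (0.73, adjusted p = 0.0215) and Yaf2 lower (-0.79, adjusted p = 0.0492). Of 14 genes of DNA methylation and demethylation, 5 were lower and 2 higher at FBS day 10 than at day 0, beside 12.5% of all probes called. The de novo methyltransferase genes Dnmt3b (-3.24, adjusted p = 0.00318) and Dnmt3a (-2.69, adjusted p = 0.00305) were lower, as was their cofactor Dnmt3l (-3.02, adjusted p = 0.0241).

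Dnmt3b was likewise lower at serum-free day 3 than at day 0 (-2.82, adjusted p = 0.00559), one of 3 lower members beside 1 higher, Gadd45b (1.49), with 14.6% of all probes called. At serum-free day 10 against FBS day 10, Dnmt3b was higher by 2.69 (adjusted p = 0.0121) and Dnmt3a by 1.48 (adjusted p = 0.034), where Dazl gave -1.85 and -1.55. Of the 14 genes of this list, 2 were higher and 1 lower there, beside 4.84% of all probes called. Dnmt3b was also lower at FBS day 3 than at day 0 (-2.96, adjusted p = 0.00612), when the Dazl probes gave 0.15 and 0.05. In that comparison 2 of the 14 were higher and 3 lower, beside 11.7% of all probes called. Whether these genes have a part in the Dazl values was not tested.

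Regulators of primordial germ cells, 12 tested, were called higher in 4 cases and lower in 1 at serum-free day 3 against day 0 (14.6% of all probes). Prdm1 (2.21, adjusted p = 0.0146) and Tfap2c (2.03, adjusted p = 0.0326), transcription factors of germ cell specification, and the receptor gene Kit (2.13, adjusted p = 0.00333) were higher. At FBS day 10 against day 0 (12.5% of all probes), 2 were higher, among them Kit (2.37, adjusted p = 0.00228), and 2 lower. Between the lines 0 were higher and 1 was lower, Nanos3 (2.5% of all probes called). Of 7 germ cell markers besides Dazl, which overlap the other lists, 1 was higher and 3 lower at serum-free day 3 against day 0. At FBS day 10 against day 0, 0 of the 7 were higher and 2 lower, and between the lines 0 were higher and 2 lower. Of 10 genes of meiotic entry and retinoid response 0 passed in limma between the lines or at FBS day 10, with 2 and 1 at an unadjusted p under 0.05. Among all 31458 probes, 5392 and 9010 were under that unadjusted p in these comparisons. Stra8, a gatekeeper of meiosis, was lower at serum-free day 10 than at FBS day 10 (-5.17, adjusted p = 0.00634).

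The neighbours of Dazl on chromosome 17 did not share its line difference. Rftn1, a lipid raft protein gene at chr17:49993258-50190497, gave -0.05 (adjusted p = 0.91) and Plcl2, a phospholipase C-like gene at chr17:50508865-50688494, gave 0.28 (adjusted p = 0.343). Daam2, Tbc1d5 and Satb1 did not pass on any tested probe, and Kif6 was not analysed here. In the arms they moved in part with Dazl and in part against it. Rftn1 was lower at serum-free day 10 than at FBS day 10 (-1.69, adjusted p = 0.0225), Plcl2 rose at serum-free day 3 (0.96, adjusted p = 0.0354), and Satb1, a chromatin organiser, was lower at FBS day 10 than at day 0 on the probe A_51_P324228 (-1.30, adjusted p = 0.0102). The other Satb1 probe, A_52_P110489, did not pass there (-0.48, limma adjusted p = 0.147).

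Genes whose log2 levels ran most like A_52_P271166 over the 12 arrays were chosen among 4912 that were detected on at least 6 arrays and varied with an SD of at least 0.5. Of these, 0.244% reached r = 0.8 and 0% reached 0.9. The 10 highest were Chst3 (0.90), a chondroitin sulfotransferase, Alg8 (0.89), Pgpep1l (0.87), Gpat2 (0.85), Slc1a1 (0.84), a glutamate transporter, Zfp711 (0.84), Trpa1 (0.84), a cation channel, Dstyk (0.83), Tmc7 (0.83) and Pycr1 (0.81), an enzyme of proline synthesis. The 5 lowest were the translation initiation factor gene Eif5 (-0.89), Gpd1 (-0.89), Thbs3 (-0.88), Cd82 (-0.86) and Limch1 (-0.86). The arrays share lines, slides and days, and these values are a description with no test.

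Some of that likeness rests on the 1 array where Dazl stood highest. Without the Dazl-GFP array of FBS day 10, r was 0.79 for Chst3, 0.84 for Alg8, 0.85 for Pgpep1l, 0.67 for Gpat2 and 0.62 for Pycr1. Zfp711 followed Dazl within each line, at 0.98 over the 6 Dazl-GFP and 0.91 over the 6 Stella-GFP arrays, as did Slc1a1 at 0.86 and 0.86. Dstyk was at 0.76 over the Dazl-GFP and 0.46 over the Stella-GFP arrays, and Trpa1 at 0.69 and 0.48. Over the Stella-GFP arrays r was 0.51 for Pgpep1l and 0.64 for Alg8. How much of the likeness comes from the difference between the lines was not tested.

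**Figure D5:**
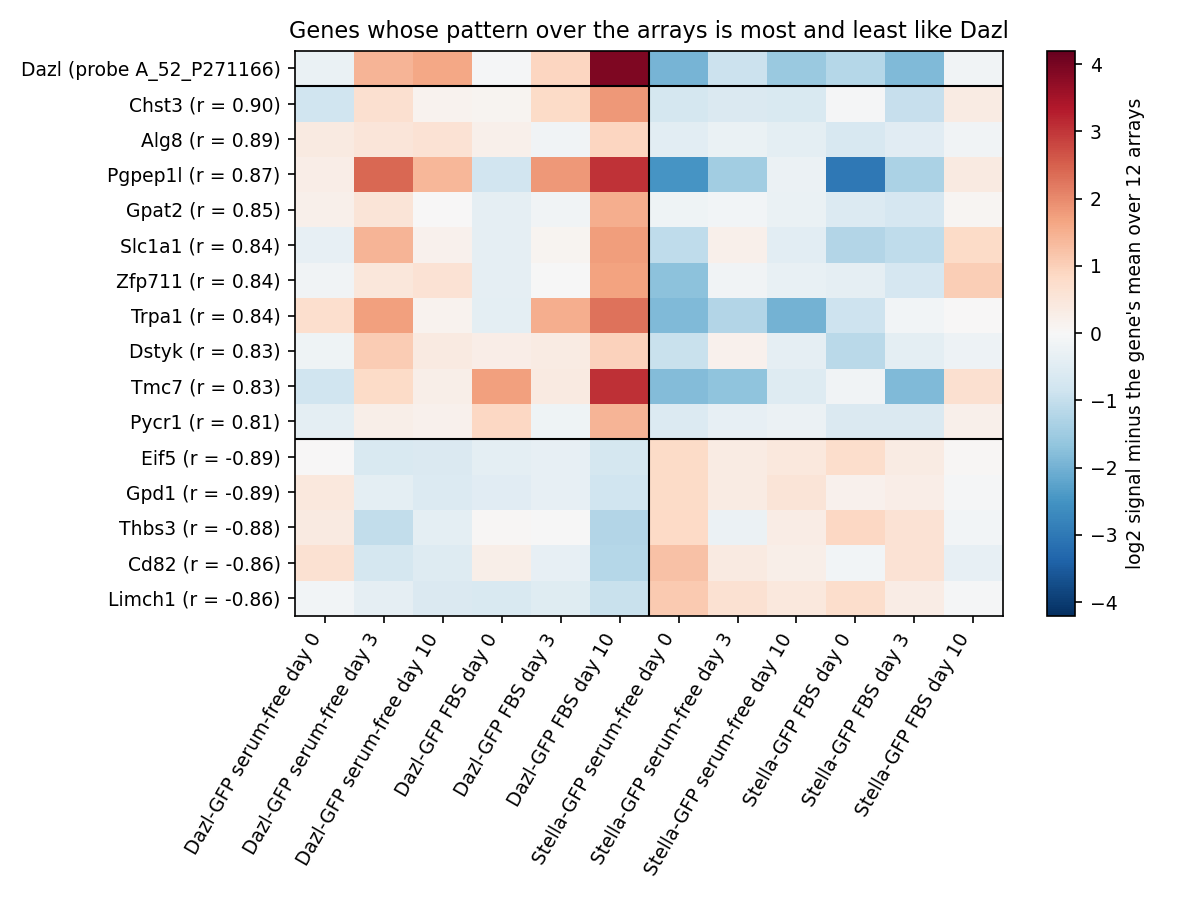
Log2 signal minus the gene's mean over the arrays (colour, red above and blue below the mean) of Dazl (top row), the 10 genes of highest and the 5 genes of lowest Pearson r (rows) on the 12 arrays (columns, Dazl-GFP at the left of the vertical line and Stella-GFP at the right). The column of Dazl-GFP cells at FBS day 10 is the deepest red for Dazl, and the Stella-GFP side is mostly blue in the upper rows and mostly red in the 5 lowest.

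A further probe of the array, A_51_P145276, is described in the files as a clone of an RNA bound by the DAZL protein. It was well above background on 0 of 12 arrays, with signals of 2.94 to 3.92 units, and gave no measurement.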

How the data were processed

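Per the file headers, the spot intensities come from Agilent Feature Extraction 9.1.3.1, with local background subtraction and detrending. The mean intensity and local background intensity that the authors deposited beside them served for normexp. The deposited series table holds, from its values, a ratio of background-subtracted intensity to the array's median, and served as an alternative with 0.1 as the lowest value.

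Log2 intensities minus each array's 75th percentile were averaged over spots of a probe. Of 41174 probes, 22951 were named through RefSeq accessions, 3096 through synonyms, and 15127 kept the file's name. Probes detected well above background by 2 or more arrays (31458) were fitted in R 4.3.3 with limma 3.58.1 (6 groups plus cell line, eBayes, Benjamini-Hochberg over all probes, threshold 0.05). A model of arm, day and line gave the all-day difference. Exact sign-flip permutation tests used the 6 pairs. The replicate numbers in the labels are the lines, so same-numbered arrays are paired by line. As a check, Dazl-GFP minus Stella-GFP differences across probes correlated between groups at -0.058 to 0.562 (median 0.18), above 0.1 in 13 of 15 comparisons. For lists, 1 probe per gene (highest mean) was used. Named genes are Dazl, the 10 highest and 5 lowest r, the 3 neighbours on either side, Dppa3, Tet1 to Tet3 and up to 4 members of each list by adjusted p. Boll, Sox2, Sall4, Suz12 and a few others beyond 4 were chosen after their values were seen. The members, lists and comparisons were chosen with earlier results of these data known. The code was tested on simulated data. Figures were drawn with matplotlib 3.10.9.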

Additional observations from a re-analysis of the deposited data

Results flagged for a closer look

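The arm difference in Dazl, serum-free minus FBS, pointed opposite ways at different days, in every array pair of a day. On A_51_P246060 its mean over the lines was -0.578 at day 0, 1.095 at day 3 and -1.547 at day 10. On A_52_P271166 it was -0.477 at day 0, 0.746 at day 3 and -1.851 at day 10. With slide as a further term the day 0 values were 0.017 on A_51_P246060 and 0.70 on A_52_P271166. Of the changes between days, the step from day 3 to day 10 was tested as such (-2.642 on A_51_P246060, limma adjusted p = 0.049, and -2.60 on A_52_P271166, adjusted p = 0.0886), as was that from day 0 to day 3 (1.67, adjusted p = 0.161, and 1.22, adjusted p = 0.416).

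Within the arms, A_51_P246060 gave -0.794 from day 3 to day 10 in serum-free medium, with both lines lower, and 1.848 in FBS, with both lines higher. On A_52_P271166 the serum-free lines differed in sign in that step (0.21 in Dazl-GFP and -0.66 in Stella-GFP cells), and both FBS lines were higher.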

How the results depend on the processing

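Each Dazl comparison was recomputed with quantile normalization, the array median, the authors' table, and normexp as it stands and with outlying backgrounds repaired. Further settings were no filter, a stricter filter, a variance trend, slide added as a term and each array omitted in turn. The setting of 1 probe per gene covers A_52_P271166 alone. Comparisons of groups were also fitted with the compared groups alone and, like the all-day arm difference, with no replicate block. The line difference and its changes were not. Most comparisons had not passed and kept their direction. The line difference on A_52_P271166 passed under all settings fitted for it but the slide block (2.17, adjusted p = 0.282) and 4 of 12 omissions. Over all 12 omissions it was 2.22 to 2.80, and those of day 3 missed the threshold. Within slide 1, at FBS day 0, it was 1.15. The replicate block here is the line. Without it (no replicate block) the pairing is lost, and FBS day 10 minus day 0 was 2.52 (adjusted p = 0.376) and 1.90 (0.116) on A_52_P271166 and A_51_P246060, serum-free day 3 minus day 0 on A_51_P246060 1.72 (0.132) and the change of the arm difference on it -2.64 (0.112). No other call changed without it.

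FBS day 10 minus day 0 missed the threshold with the slide block (3.15, adjusted p = 0.0572, and 2.22, 0.0836 on A_52_P271166 and A_51_P246060), with only the arrays compared (2.52, 0.174, and 1.90, 0.164) and, on A_52_P271166, without a filter (2.52, 0.0535). Omissions gave 1.6 to 3.45 (10 of 12 missing the threshold) on A_52_P271166 and 1.03 to 2.76 (9 of 12) on A_51_P246060. Serum-free day 3 minus day 0 on A_51_P246060 missed it with quantile normalization (1.66, adjusted p = 0.0504), normexp (0.71), repaired normexp (0.77), no filter (1.72, 0.0627), the slide block (1.72, 0.0642) and 8 of 12 omissions (1.52 to 1.93); on A_52_P271166 it passed with only the arrays compared (1.37, 0.037). The change of the arm difference on A_51_P246060 missed it without a filter (-2.64, 0.0667), with the slide block (-2.69, 0.0908), with only the arrays compared (-2.64, 0.0744) and in 9 of 12 omissions (-3.51 to -1.78). FBS day 10 minus day 3 passed with a variance trend (2.37 and 1.85, both 0.0434) and, on A_51_P246060, with probes above background on all arrays (1.85, 0.0454).

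Signs turned only where no call stood. With the slide block the arm difference at day 0 was 0.70 and 0.017 on A_52_P271166 and A_51_P246060, over all days 1.07 and 1.10, and the line difference between arms 2.03 and 0.72. In the authors' table that line difference was 0.04 on A_51_P246060. Over omissions the ranges were -1.31 to 0.35 for the arm difference at day 0 on A_52_P271166 and -0.62 to 0.035 over all days on A_51_P246060. FBS day 3 minus day 0 ranged from -0.68 to 0.98 and from -0.27 to 0.37. The line difference between arms ranged from -1.04 to 0.42 and from -0.59 to 0.40, and serum-free day 10 minus day 3 on A_52_P271166 from -0.62 to 0.17. Serum-free minus FBS on A_51_P246060 passed at day 3 without either FBS day 10 array (0.79 to 1.40 over omissions) and at day 10 without the Stella-GFP one (-2.41 to -0.68). Of the 10 genes most like Dazl, 6 were among the 10 highest by Spearman's rho and 9 after quantile normalization. The causes were not tested.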
